A study of Homo sapiens with 15 samples.

Results

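The 15 libraries were scored by their RNA for 4 epithelial genes, and the 5 libraries with the highest score were compared with the 5 with the lowest across all other genes, whatever their genotype. The score is the mean of log2(CPM + 1) of CDH1, EPCAM, ESRP1 and GRHL2, where CPM is the count of a gene relative to the total count of its library, as the authors deposited it. The libraries are poly(A) RNA-seq of MCF-10A, a non-tumorigenic line of human mammary epithelial cells, grown untreated in medium with horse serum, EGF, hydrocortisone, cholera toxin and insulin. They come from 5 genotypes with 3 libraries labelled as biological replicates each: parental cells, cells with an empty vector, and cells edited in NF1 with guide 1, with guide 2 or with guides 1 and 2. The product of NF1, neurofibromin, switches RAS off by speeding its GTP hydrolysis. The labels do not say whether an edited line is 1 clone or a pool, nor how the vector was delivered.

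The high libraries were empty vector replicates 2 and 1, parental replicate 1, empty vector replicate 3 and guide 2 replicate 2, in rising order of score. The low libraries were guide 1 replicates 1, 3 and 2 and guide 2 replicates 3 and 1, in rising order. Between them lay parental replicate 2, guides 1 and 2 replicates 3, 2 and 1, and parental replicate 3. Values per library are given below in these orders. Only guide 2 has libraries on both sides, all 3 empty-vector libraries are high and all 3 guide 1 libraries are low, so that side and genotype cannot be told apart for most of the libraries. Guide 2 replicate 2 stood apart from its genotype: 76.8% and 76.6% of genes differed beyond sampling noise from its other 2 replicates, against 24.6 to 65.8% for the other pairs of replicates. Because the sides were chosen by expression in the same libraries, every difference between them is a description without a test. Tests are given only for the labelled genotypes.

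Epithelial cells hold to each other through adherens junctions built on E-cadherin, through desmosomes and through tight junctions, and basal mammary cells also anchor to the basement membrane through hemidesmosomes. In an epithelial-mesenchymal transition the ZEB, SNAI and TWIST transcription factors repress such genes, while GRHL, OVOL and ESRP proteins act for the epithelial state. MCF-10A cells express basal keratins beside mesenchymal genes such as VIM and are known to shift between epithelial and mesenchymal states with culture conditions.

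The score ran from 0.468 to 0.502 in the low libraries, from 0.947 to 3.084 between, and from 3.522 to 4.919 in the high libraries. Just outside the high side lay parental replicate 3 (3.084), against 3.522 in empty vector replicate 2 just inside it. Just outside the low side lay parental replicate 2 (0.947), against 0.502 in guide 2 replicate 1 just inside it. The 3 parental libraries therefore had 0.947, 3.084 and 3.906, and guide 2 replicate 2 had 4.919 against 0.495 and 0.502 in its other replicates. The empty-vector libraries had 3.522, 3.528 and 4.283, the guide 1 libraries 0.468 to 0.492, and the libraries with guides 1 and 2 had 2.314, 2.491 and 2.649.

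**Figure D1:**
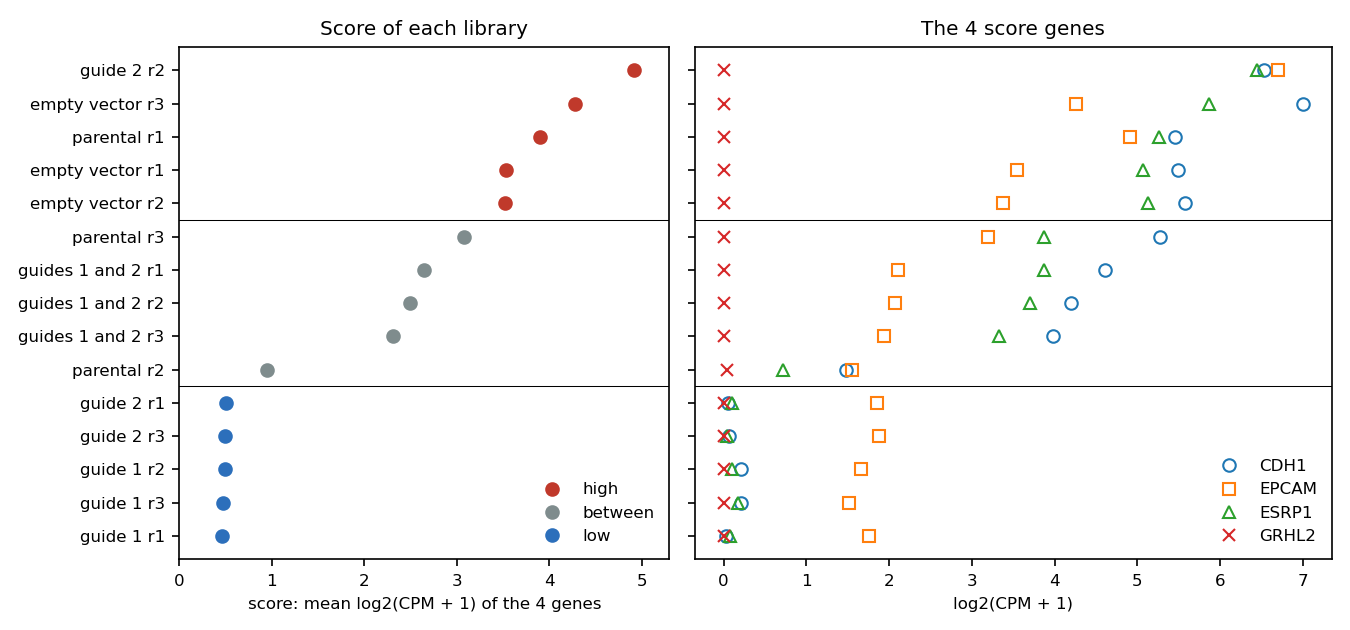
Left, the score of each library (x axis, mean log2(CPM + 1) of the 4 genes), coloured by side; right, the same for each score gene. The low libraries lie within 0.468 to 0.502 and the high ones between 3.522 and 4.919, while GRHL2 lies at 0 or close to it in every library.

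Of the genes in the score, CDH1 encodes E-cadherin, the core of adherens junctions (ENSG00000039068, chr16:68737225-68835548, plus strand, GRCh38). CDH1 was at 0.0191, 0.158, 0.152, 0.0434 and 0.0361 CPM in the low libraries and at 46.8, 44.1, 42.9, 127 and 91.4 CPM in the high ones, with 1.79, 14.8, 17.3, 23.4 and 37.8 CPM between. EPCAM, an epithelial adhesion protein, was at 2.39, 1.85, 2.15, 2.67 and 2.62 CPM in the low and 9.42, 10.7, 29.1, 18.2 and 103 CPM in the high libraries, highest in guide 2 replicate 2. ESRP1, which sets epithelial splicing patterns, was at 0.0574, 0.127, 0.076, 0.0289 and 0.0723 CPM in the low and 33.9, 32.6, 37.3, 57.3 and 86.6 CPM in the high libraries. A gene with 3 counts has 0.038 to 0.065 CPM in these libraries, so CDH1 and ESRP1 lay close to that floor in the low ones. GRHL2, a transcription factor of the epithelial state, had 0 counts in 14 libraries and 2 counts in parental replicate 2, which is below the floor. The label epithelial thus rests on 3 of the 4 genes. Low RNA in a bulk library can mean fewer cells with the gene on or less RNA per cell, which cannot be told apart.

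NF1, the edited gene, was at 43.6, 51.3, 47.3, 29.8 and 27 CPM in the low libraries and 123, 115, 159, 133 and 31.4 CPM in the high ones, and the sides overlapped. The library labelled guide 2 replicate 2, at 31.4 CPM, had a level like those of the other guide 2 libraries (27 and 29.8 CPM). The libraries with guides 1 and 2 were also at 28.9, 29.4 and 26.0 CPM in replicates 1, 2 and 3. Its NF1 level thus fits its label but cannot tell guide 2 from guides 1 and 2. Over all 15 libraries NF1 was -2.01 on the log2 scale (SE 0.056) in the 9 edited against the 6 unedited ones, with an adjusted p of 4.11e-10 by edgeR's quasi-likelihood test.

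A gene is called apart here if no high library overlaps a low one, the sides differ by at least 1 in mean log2(CPM + 1), and its mean over the 15 libraries is at least 1 CPM. Of 12808 genes with that mean, 484 (3.78%) were apart. Without regard to size, the sides did not overlap for 2747 (21.4%). Of the 484, 343 (2.68% of all) were higher in the high libraries, 3 score genes among them, and 141 (1.1%) were lower. The differences were larger among the higher genes, with a median size of 1.60 and a maximum of 7.16, than among the lower genes, with 1.20 and 2.59. A size of at least 2 was reached by 121 higher genes and by 2 lower ones. On this scale the differences of genes with low CPM are understated. A gene near the floor in the low libraries reaches a mean of 1 CPM only through other libraries. Such a gene can be apart only as higher in the high libraries. The mean of the libraries in between lay between the sides for 340 of the 343 higher and 132 of the 141 lower genes.

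The 12 genes with the largest positive differences were COL17A1, FAT2, DSG3, DSC3, TP63, LAD1, MPZL2, ITGB6, S100A14, C1orf116, KRT17 and KRT14, most of which encode adhesion, basement membrane or keratin filament proteins. COL17A1, a collagen of hemidesmosomes (chr10:104031286-104085957, minus strand), was at 1.13, 4.05, 1.25, 1.86 and 1.39 CPM in the low and 303, 279, 337, 630.1 and 553 CPM in the high libraries. The mean of the high side was 217 times that of the low side (420.4 ± 159.8 against 1.94 ± 1.21 CPM, mean and SD, n = 5 each). Every high library was above every low one by a wide margin, and the libraries in between had 21.3, 126, 136, 156 and 244 CPM. FAT2, an atypical cadherin of basal epithelium, was at 0, 0.0949, 0.0506, 0.0289 and 0 CPM in the low libraries, at or under the floor of 3 counts in all but guide 1 replicates 3 and 2, and at 93.5, 71.4, 99.7, 131 and 193 CPM in the high ones. TP63 encodes p63, the transcription factor that defines basal epithelial cells (chr3:189631416-189897279, plus strand). TP63 was at 0.153, 0.142, 0.203, 0.0723 and 0.0542 CPM in the low and 41.4, 43.1, 37.4, 68 and 75.8 CPM in the high libraries, with 0.815, 7.83, 9.97, 11 and 19.9 CPM between. TP63 was thus under 1 CPM in all 5 low libraries and in parental replicate 2, and far above it in every high library.

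**Figure D2:**
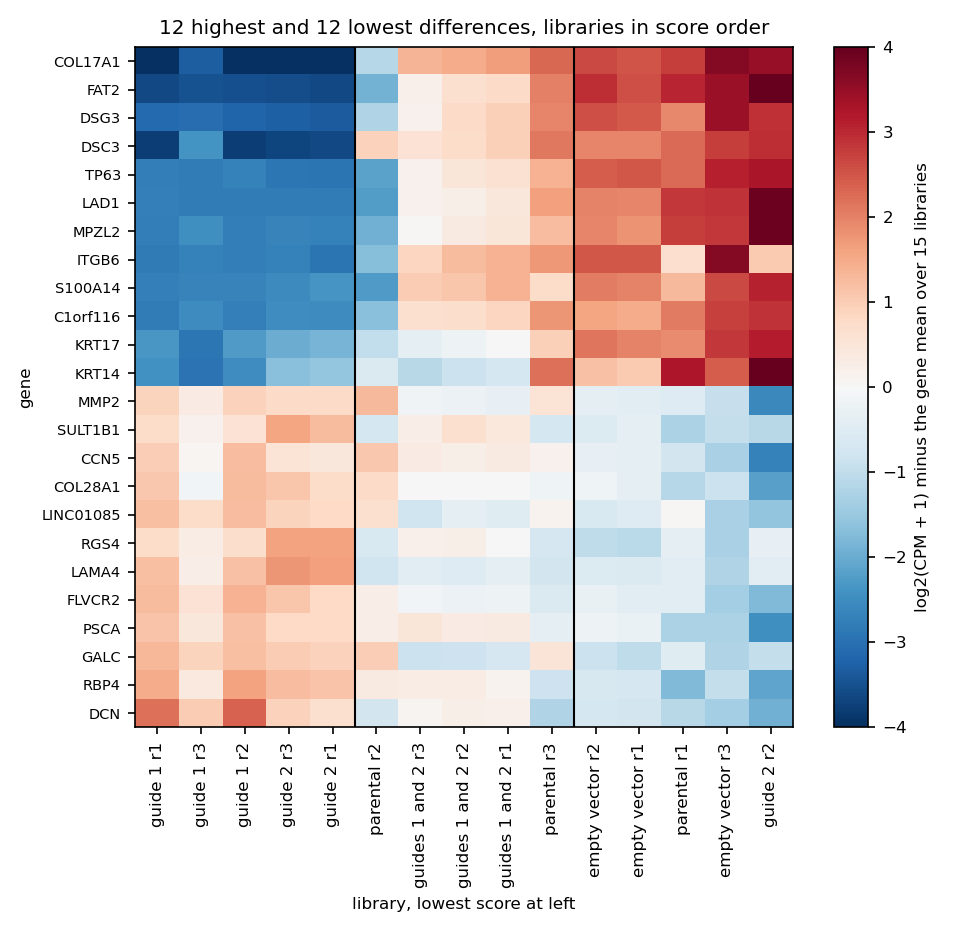
Colour gives log2(CPM + 1) minus the mean of the gene over the 15 libraries, for the 12 highest and 12 lowest differences (rows), with libraries ordered by score (columns) and lines between the sides; values beyond 4 in either direction take the end colours. The upper 12 genes turn from blue to red through the libraries in between, and the lower 12 show a smaller contrast, at most 2.59 between sides.

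Among desmosome genes, which encode the cadherins and plaque proteins that tie keratin filaments to the membrane, 11 of 12 had a mean of at least 1 CPM and 7 were apart, all higher in the high libraries. The median difference of all 12 listed was 1.17, against 0.01 over the 12808 genes with at least 1 CPM. Of those 12808 genes, 2.68% were apart and higher. The desmosomal cadherin DSG3 was at 0.421, 0.491, 0.342, 0.275 and 0.235 CPM in the low and 72.3, 67.1, 45.8, 135 and 91.7 CPM in the high libraries. DSG3 thus passed the filter on mean CPM only through other libraries and could be apart only in this direction. DSC3 was at 0.479, 2.85, 0.481, 0.593 and 0.632 CPM in the low and 77.2, 77, 96.1, 136 and 156 CPM in the high libraries, and guide 1 replicate 3 stood above the other low ones. DSP, the desmoplakin that links the plaque to keratin, was at 112, 139, 121, 116 and 103 CPM in the low and 594, 513, 517, 930.0 and 815 CPM in the high libraries, a ratio of means of 5.7. The sides did not overlap for any of these. DSC2, PERP, PKP3 and JUP made up the rest of the 7, with differences of 3.93, 1.56, 1.31 and 1.03. PKP2 and DSG2 did not overlap either but differed by less than 1 (0.95 and 0.68), and the envelope plakins EVPL and PPL overlapped, at 0.09 and 0.02.

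Tight junction and polarity genes were apart for 7 of the 12 members with at least 1 CPM (of 18 listed), all higher in the high libraries. The share apart and higher was 2.68% over all 12808 genes with at least 1 CPM. CRB3, a polarity protein of the apical membrane, was at 0, 0, 0, 0 and 0.0181 CPM in the low and 1.51, 1.63, 2.81, 3.49 and 4.62 CPM in the high libraries. MARVELD3, a tight junction membrane protein, was at 0, 0, 0, 0 and 0 CPM in the low and 2.67, 2.82, 3.33, 5 and 7.63 CPM in the high libraries. Both genes were therefore at or under the floor in every low library and detected in every high one. They passed the filter on mean CPM only through other libraries, so they could be apart only in this direction. LSR, a protein of tricellular junctions, was at 1.68 to 2.37 CPM in the low and 29.4 to 55.2 CPM in the high libraries, and MARVELD2 (tricellulin) at 1.91 to 2.94 and 19.7 to 34.7 CPM. F11R, CLDN1 and LLGL2 differed by 2.16, 2.10 and 1.54. TJP1, the scaffold ZO-1, overlapped, with 137 to 145 CPM in the low and 129 to 199 CPM in the high libraries, so that the plaque scaffold was present on both sides.

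Epithelial surface and protease genes were apart for 11 of 16 (of 20 listed), all higher in the high libraries. The median difference of all 20 listed was 1.39. Members under 1 CPM in every low library, such as LAD1 and AP1M2, passed the filter on mean CPM only through other libraries. They could be apart only in this direction. The share apart and higher was 2.68% over all 12808 genes with at least 1 CPM. LAD1, ladinin of the basement membrane zone, was at 0.0574, 0.0158, 0, 0.0145 and 0.0181 CPM in the low and 26.6, 26.3, 48.9, 50.6 and 105 CPM in the high libraries. ST14, the membrane protease matriptase, was at 1.23, 2.18, 1.65, 2.33 and 1.93 CPM in the low and 54.7, 50.0, 44.4, 93.7 and 102 CPM in the high libraries, a ratio of means of 37. AP1M2, the adaptor subunit for sorting to the basolateral membrane, was at 0.287, 0.411, 0.165, 0.0867 and 0.199 CPM in the low and 3.02, 2.7, 16.1, 7.35 and 40.3 CPM in the high libraries. AP1M2 was highest in guide 2 replicate 2 and parental replicate 1, with the empty-vector libraries below them at 2.7 to 7.35 CPM. The matriptase inhibitors SPINT1 and SPINT2 differed by less, 1.21 and 1.57. MUC1, ERBB3 and CD24 overlapped, with CD24 spanning 22.1 to 266 CPM within the high libraries alone.

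The promoters of several of these genes are shown because the genes stand together between the sides and because ZEB and SNAI factors are known to bind the E-box CAGGTG. The sequences are the 250 bases before the start of the gene in RefSeq (GRCh38.p14), written 5′ to 3′ on the strand of the gene, with each CAGGTG or its reverse complement CACCTG in capitals. CRB3 (chr19:6464021-6464270, plus strand) holds 5 matches and AP1M2 (chr19:10587313-10587562, minus strand) holds 3. LAD1 (chr1:201399325-201399574, minus strand) and DSP (chr6:7541421-7541670, plus strand) hold 2 each, and COL17A1 (chr10:104085881-104086130, minus strand), the gene with the largest difference, holds 0. COL17A1 is not alone in this. In windows that run 50 bases past the start, FAT2, DSG3, DSC3 and TP63, the next in size of difference, hold 0 as well. For TP63 the window searched (chr3:189631139-189631438) lies at the upstream end of the gene. Starts further inside TP63 were not searched. LSR, MARVELD2, CLDN1 and PERP also hold 0, while ITGB6, S100A14 and C1orf116 hold 1 each. The motif and these examples were chosen after the values and matches had been seen.
CRB3: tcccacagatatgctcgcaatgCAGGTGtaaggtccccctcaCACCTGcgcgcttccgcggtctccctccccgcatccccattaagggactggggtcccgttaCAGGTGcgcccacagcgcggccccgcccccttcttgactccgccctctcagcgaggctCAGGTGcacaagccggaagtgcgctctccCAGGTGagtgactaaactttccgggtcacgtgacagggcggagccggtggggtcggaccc
AP1M2: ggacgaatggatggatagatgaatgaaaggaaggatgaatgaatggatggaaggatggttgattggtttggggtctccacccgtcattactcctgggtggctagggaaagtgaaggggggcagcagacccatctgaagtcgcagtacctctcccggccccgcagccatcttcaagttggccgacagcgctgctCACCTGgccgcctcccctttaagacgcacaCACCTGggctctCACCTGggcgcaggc
LAD1: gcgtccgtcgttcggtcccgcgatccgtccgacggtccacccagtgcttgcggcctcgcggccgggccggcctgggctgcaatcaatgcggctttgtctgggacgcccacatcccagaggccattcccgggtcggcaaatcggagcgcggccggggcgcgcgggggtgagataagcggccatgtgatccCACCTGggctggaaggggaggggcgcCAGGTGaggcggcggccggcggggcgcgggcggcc
DSP: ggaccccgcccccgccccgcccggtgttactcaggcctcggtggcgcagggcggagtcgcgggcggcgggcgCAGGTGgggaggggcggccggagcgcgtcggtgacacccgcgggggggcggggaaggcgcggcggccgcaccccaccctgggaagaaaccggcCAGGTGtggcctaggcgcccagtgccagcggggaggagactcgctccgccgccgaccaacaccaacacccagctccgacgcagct
COL17A1: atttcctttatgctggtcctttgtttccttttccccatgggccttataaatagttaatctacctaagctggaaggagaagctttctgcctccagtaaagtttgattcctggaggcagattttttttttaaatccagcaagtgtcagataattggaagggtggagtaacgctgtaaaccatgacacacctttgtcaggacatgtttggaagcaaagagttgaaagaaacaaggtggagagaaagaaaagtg
Over windows from 250 bases before to 50 after each start, searched on both strands for this motif alone, 20.6% of all 35116 windows and 18.1% of those of genes with at least 1 CPM held a match. The share was 31.3% (110 of 351 windows, 232 of 340 genes matched by symbol) for apart genes higher in the high libraries, the score genes left out. It was 14.8% (26 of 176 windows, 100 of 141 genes matched) for apart genes that were lower. Some genes, such as GALC, have several windows that overlap, so windows are not independent. Counted by gene, 22 of the 100 matched lower genes held a match in at least 1 window. By gene the share was 41.4% for the higher genes and 23.4% for genes with at least 1 CPM. The lower genes were thus close to the genes with at least 1 CPM when counted by gene. The matches start between 228 and 60 bases before the gene start in CRB3 and between 57 and 15 bases before it in AP1M2. A match describes letters in a window, not binding.

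Basal mammary genes were apart for 14 of 19 (of 20 listed), all higher in the high libraries. The median difference of all 20 listed was 1.97. TP63, under 1 CPM in every low library, passed the filter on mean CPM only through other libraries. It could be apart only in this direction. The share apart and higher was 2.68% over all 12808 genes with at least 1 CPM. KRT17 was at 35.9, 24.1, 37.6, 46.1 and 50.3 CPM in the low and 816, 733, 681, 1327 and 1622 CPM in the high libraries, 26.7 times higher in the mean. KRT14, a keratin of the basal layer, was at 9.9, 6.44, 9.32, 17.4 and 18.9 CPM in the low and 129, 118, 545, 309 and 1147 CPM in the high libraries. It was highest in guide 2 replicate 2 and lowest, among the high libraries, in empty vector replicates 1 and 2. KRT5, the partner of KRT14 in basal keratin filaments, was at 870.3, 625, 1001, 793 and 709 CPM in the low and 1972, 1859, 2997, 2368 and 4997 CPM in the high libraries. KRT5 was therefore expressed on both sides, with a ratio of means of 3.55. Of the laminin-332 chains of the basement membrane, LAMA3 differed by 4.23, while LAMB3 overlapped at 0.34. LAMA3 was at 42.1, 50.3, 47, 42.7 and 35.2 CPM in the low and 774, 728, 492, 1925 and 727 CPM in the high libraries, highest in empty vector replicate 3. Integrin ITGA6 differed by 1.89, and its hemidesmosome partner ITGB4 overlapped at 0.13.

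Of 18 luminal mammary genes only 7 had a mean of at least 1 CPM, and 1, the protease inhibitor SLPI, was apart (7.33 to 12.4 CPM in the low and 28.8 to 75.8 CPM in the high libraries). KRT8 and the luminal transcription factor GATA3 overlapped between the sides, at -0.22 and -0.44. The median difference of all 18 listed was near 0, with 11 of them under a mean of 1 CPM. Over all 12808 genes with at least 1 CPM, 3.78% were apart. Of 25 squamous differentiation genes 6 had at least 1 CPM and 5 were apart, all higher in the high libraries. The other 19 had a mean under 1 CPM. Members near 0 in the low libraries passed that filter only through other libraries, which favours this direction. SPRR1B, a precursor of the cornified envelope, had 0 CPM in every low library and 1.53, 1.03, 3.91, 11 and 31.5 CPM in the high ones. The calgranulin S100A9 was at 0.23 to 0.542 CPM in the low and 5.12 to 37.9 CPM in the high libraries.

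**Figure D3:**
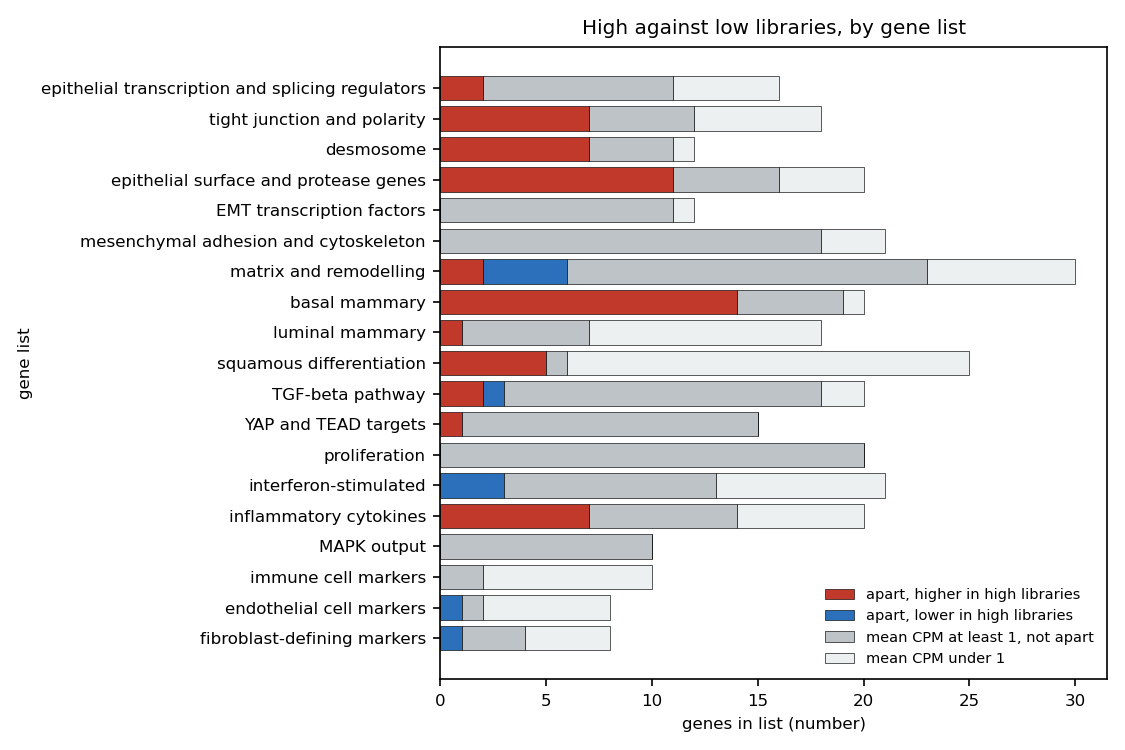
For each gene list, bars count the genes apart and higher in the high libraries (red), apart and lower (blue), with a mean of at least 1 CPM but not apart (grey) and with a mean under 1 CPM (pale). Basal genes (14 of 19) and epithelial surface genes (11 of 16) hold the highest numbers in red, and desmosome, tight junction and inflammatory genes hold 7 each. No proliferation or MAPK gene was apart, which is near the share of 3.78% over all 12808 genes.

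Of 11 epithelial regulators with at least 1 CPM (of 16 listed), 2 were apart, ESRP2 among them. Over all 12808 genes with at least 1 CPM, 3.78% were apart, and for 21.4% the sides did not overlap, whatever the size. ESRP2, the paralog of ESRP1, was at 11.3, 14.7, 11.2, 10.8 and 10.6 CPM in the low and 32.4, 34.1, 39.3, 51.1 and 67.4 CPM in the high libraries. Unlike ESRP1, ESRP2 was thus detected well above the floor in every low library. OVOL2, a repressor of ZEB1, did not reach a mean of 1 CPM and did not overlap, at 0, 0.0316, 0.0253, 0 and 0.0361 CPM in the low and 0.885, 1.12, 2.02, 1.62 and 3.79 CPM in the high libraries. GRHL1, KLF5, TFAP2A and CEBPA did not overlap but differed by less than 1 (0.69, 0.58, 0.25 and 0.46), as did MIR200CHG, the host of miR-200c, at 0.105 to 0.83 CPM in the high libraries, and ELF3 at 0.0922 to 0.336 CPM. GRHL3, EHF, RBM47, TFAP2C, KLF4 and OVOL1 overlapped, and so did MIR205HG, the host of miR-205, at 15.7 to 71 CPM in the low and 60.1 to 126 CPM in the high libraries.

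None of the 12 EMT transcription factors was apart, and 11 of them had at least 1 CPM. With 3.78% of all 12808 genes apart, a count of 0 lies near that share. The median difference of all 12 was -0.21. ZEB1 was at 43.7, 48.5, 41.6, 54.4 and 56.1 CPM in the low and 34.9, 35.7, 38.2, 30.1 and 16.7 CPM in the high libraries, a difference of -0.68. ZEB2 was at 44, 47.1, 41.2, 41.9 and 37.8 CPM in the low and 30.0, 29.5, 30.6, 23.1 and 9.75 CPM in the high libraries, a difference of -0.86. For both the sides did not overlap, and guide 2 replicate 2 was the lowest of the high libraries; without it the differences were -0.48 and -0.57. FOXC2 likewise did not overlap, at -0.69. Without regard to size, the sides did not overlap for 21.4% of the 12808 genes with at least 1 CPM. SNAI2 was at 126 to 145 CPM in the low and 139 to 161 CPM in the high libraries, TWIST1 at 22.3 to 28.1 and 16.5 to 23.2 CPM and TWIST2 at 18.3 to 25.3 and 16.7 to 24.4 CPM. These 3 therefore overlapped between the sides and were expressed in all 10 libraries. SNAI1 was low, at 0.574, 0.902, 0.899, 0.824 and 0.777 CPM in the low and 2.99, 2.42, 1.05, 3.06 and 0.816 CPM in the high libraries. Its 3 highest values were the 3 empty-vector libraries. By genotype SNAI1 was -0.96 on the log2 scale (SE 0.129) in edited against unedited libraries, with an adjusted p of 0.00563 by edgeR. The unedited group joins parental and empty-vector libraries. Parental replicates 1, 2 and 3 were at 1.052, 1.269 and 1.234 CPM, well below the empty-vector libraries. They overlapped guides 1 and 2 replicates 1, 2 and 3, at 1.236, 1.498 and 1.126 CPM. The guide 1 and guide 2 libraries were lower, at 0.574 to 0.902 CPM. The part of the vector in this difference was not tested. TCF4, FOXQ1, SOX9 and PRRX1 overlapped, with differences from -0.28 to 0.59.

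**Figure D4:**
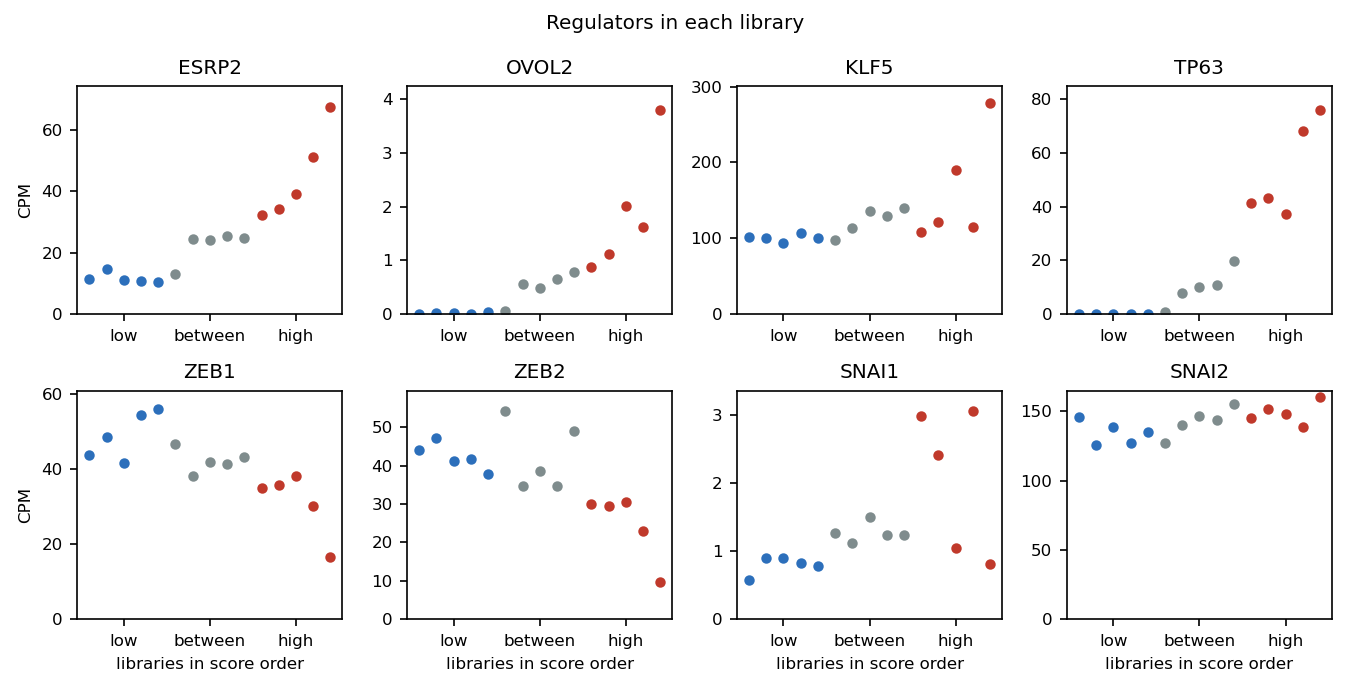
CPM (y axis, from 0, own scale in each panel) of 8 regulators in the 15 libraries, ordered by score along x and coloured by side. ESRP2, OVOL2 and TP63 climb with the score, KLF5 is highest in guide 2 replicate 2 at 279 CPM, ZEB1 and ZEB2 are lowest in guide 2 replicate 2 at 16.7 and 9.75 CPM, and SNAI2 stays between 126 and 161 CPM.

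Of 18 mesenchymal adhesion and cytoskeletal genes with at least 1 CPM (of 21 listed) none was apart, near the share of 3.78% over all 12808 genes. The median difference of all 21 listed was 0.03. VIM, vimentin, was at 1947, 2051, 1954, 2007 and 2107 CPM in the low and 1599, 1577, 1466, 1543 and 866 CPM in the high libraries. VIM was thus lower in every high library, by a difference of -0.55 and was expressed on both. FN1, fibronectin, was at 11621 to 18543 CPM in the low and 2818 to 13397 CPM in the high libraries, and CDH2, N-cadherin, at 76.1 to 94.5 and 17.9 to 79.8 CPM, both with overlap. AXL and TPM2 did not overlap and were lower in the high libraries (-0.90 and -0.56), whereas CALD1, FSCN1 and CD44 did not overlap and were higher (0.34, 0.73 and 0.32). The share without overlap, whatever the size, was 21.4% over all 12808 genes.

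Among the 141 genes that were lower in the high libraries, DCN had the largest difference, and the 12 largest were DCN, RBP4, GALC, PSCA, FLVCR2, LAMA4, RGS4, LINC01085, COL28A1, CCN5, SULT1B1 and MMP2. DCN encodes decorin, a proteoglycan that binds collagen (chr12:91140484-91183123, minus strand). DCN was at 965, 432, 1095, 400.2 and 329 CPM in the low and 130.4, 127, 98, 82.3 and 55.4 CPM in the high libraries, 6.54 times higher in the mean of the low side. Within the low side guide 1 replicates 1 and 2 were the highest, and the libraries in between had 126, 227, 251, 245 and 91.9 CPM. RBP4, the retinol carrier, was at 23.4, 10.4, 25.7, 19.7 and 18.2 CPM in the low and 4.54, 4.43, 1.54, 3.51 and 1.03 CPM in the high libraries. MMP2, a secreted gelatinase, was at 91.9, 61.4, 93.8, 83.7 and 84.2 CPM in the low and 36.6, 35, 34.1, 25.5 and 7.3 CPM in the high libraries. For MMP2 guide 2 replicate 2 was the lowest of all, and parental replicate 2, between the sides, was at 122 CPM, above every low library. RGS4, which speeds the turn-off of G protein signals, was at 5.25, 3.66, 5.12, 10.5 and 10.4 CPM in the low and 0.848, 0.805, 1.96, 0.522 and 1.99 CPM in the high libraries, and was highest in guide 2 replicates 3 and 1. LAMA4, a laminin chain of vascular and stromal basement membranes, was at 11.9, 5.68, 11.4, 17.8 and 16.2 CPM in the low and 2.84, 2.75, 3.17, 1.42 and 3.08 CPM in the high libraries. The other 7 differed by -1.72 (SULT1B1) to -1.98 (GALC).

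Of 23 matrix and remodelling genes with at least 1 CPM (of 30 listed), 4 were apart and lower in the high libraries and 2 were apart and higher. The lower ones were DCN, MMP2, the metalloprotease inhibitor TIMP1 (1989.7 to 2819.9 CPM in the low and 399.6 to 1635 CPM in the high libraries) and the serpin SERPINE2 (398 to 879.5 and 121 to 315 CPM). The higher ones were the urokinase PLAU (34.6 to 44.4 and 46.2 to 256 CPM) and the gelatinase MMP9, which was at 0, 0, 0, 0.0145 and 0 CPM in the low and 1.88, 1.3, 0.684, 18.5 and 0.199 CPM in the high libraries. MMP9 passed the filter on mean CPM only through libraries outside the low side. Matrix proteases and inhibitors were thus found on both sides of the comparison, and COL1A1 and POSTN overlapped. Over all 12808 genes with at least 1 CPM, 1.1% were apart and lower and 2.68% were apart and higher.

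Inflammatory cytokine genes were apart for 7 of 14 (of 20 listed), all higher in the high libraries: IL1A, IL1B, CXCL1, CXCL2, CXCL3, CSF3 and TNFAIP3. Over all 12808 genes with at least 1 CPM, 2.68% were apart and higher and 1.1% were apart and lower. The keratinocyte alarm cytokine IL1A was at 12.7, 6.9, 10.1, 7.99 and 9.27 CPM in the low and 71.5, 83.2, 99.3, 117 and 185 CPM in the high libraries. IL1B was at 2.64, 1.03, 1.68, 1.24 and 1.82 CPM in the low and 32.6, 35.9, 4.54, 75.1 and 10.2 CPM in the high libraries, and its 3 highest values were the 3 empty-vector libraries. Interferon-stimulated genes were apart for 3 of 13 (22 listed, 21 matched), all lower in the high libraries. The tetherin gene BST2 was at 50.9, 36.3, 53.2, 61.1 and 60.6 CPM in the low and 24, 23.7, 21.6, 12.4 and 9.04 CPM in the high libraries, and IFI44L and IFI44 differed by -1.52 and -1.23. In the TGF-beta list INHBA, an activin subunit, and the activin antagonist FST were apart and higher (3.32 and 1.44), BMP4 was apart and lower (-1.05), and 15 of the 18 with at least 1 CPM were not apart. Of 15 YAP and TEAD target genes 1, the kinase NUAK2, was apart, and none of 20 proliferation genes and none of 10 MAPK output genes was. Each of these counts lies near the share of 3.78% over all 12808 genes. MKI67, the proliferation antigen, was at 385 to 735 CPM in the low and 415 to 785 CPM in the high libraries.

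Markers of other cell types were checked on the same scale. The 10 immune cell markers summed to 6.09 to 9.88 CPM in the low and 6.03 to 16.3 CPM in the high libraries, with none apart. CD3E, MS4A1 and NKG7 were at 0 in every library, which at 3 counts allows up to 0.038 to 0.065 CPM, and PTPRC was at 0.0542 CPM or less. The 8 endothelial markers summed to 6.52 to 13.3 CPM and 3.00 to 5.37 CPM, and KDR was apart (-1.28), while CDH5, CLDN5, EMCN and TIE1 were under 0.065 CPM in every library. The 8 fibroblast markers summed to 376 to 1153 CPM in the low and 97.1 to 226 CPM in the high libraries, mostly DCN, while PDGFRB, FAP and COL1A1 overlapped and COL3A1 and THY1 were at 0.0746 CPM or less in both sides. The part of other cells in these differences was not tested. Totals were 52229514 to 78976917 counts in the low and 53612149 to 57121914 in the high libraries. Mitochondrial genes held 3.32 to 4.92% and 2.85 to 3.98% of counts, and the 20 most abundant genes 9.98 to 12.3% and 8.03 to 10.9%. The part of these in the differences was not tested.

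Parental replicates 3 and 2 lie on neither side and were not used to choose the apart genes, except in the mean over 15 libraries. They differ in score (3.084 and 0.947), have the same label, and were set side by side after their values had been seen. Over all 12808 genes parental replicate 3 was higher in 51.1%, at least 1 higher on the log2(CPM + 1) scale in 1.2% (154 genes) and at least 1 lower in 0.117% (15 genes). Of the 343 genes higher in the high libraries, parental replicate 3 was above replicate 2 in 333 (97.1%), by at least 1 in 142 (41.4%), and by at least 1 in the opposite direction in 0. These 142 genes are 92.2% of the 154. Of the 141 genes lower in the high libraries, replicate 3 was below replicate 2 in 132 (93.6%), by at least 1 in 4 (2.84%). FAT2 differed by 3.91 between these libraries (47.8 and 2.26 CPM), COL17A1 by 3.45, TP63 by 3.53 and CDH1, which is in the score, by 3.80. DSC3 differed by 1.17, less than DSG3 at 3.13, and DCN by -0.45. LAMA4 (0.05) and RGS4 (-0.09) differed little within the parental pair. There is 1 library on each side of this pair, so these differences have no replicate check.

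**Figure D5:**
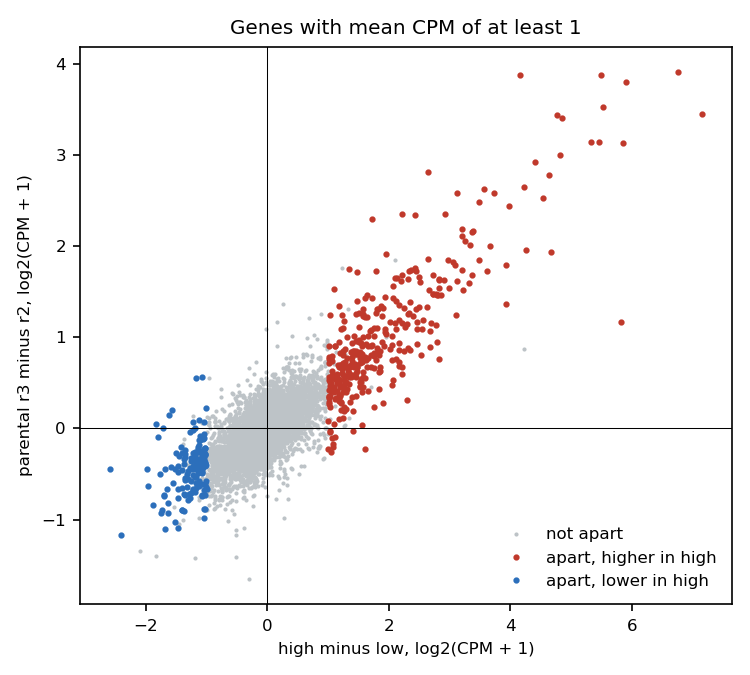
Each point is 1 of 12808 genes: x, difference of the high minus the low libraries in mean log2(CPM + 1); y, parental replicate 3 minus replicate 2 on the same scale. Of the red genes (apart, higher) 333 of 343 lie above 0 on y, and of the blue genes (apart, lower) 132 of 141 lie below 0.

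Guide 2 is the only genotype with libraries on both sides, and the direction in its libraries is fixed by the choice of the apart genes. Guide 2 replicate 2 was above the mean of replicates 1 and 3 by at least 1 in 317 of the 343 higher genes, and below it by at least 1 in 138 of the 141 lower genes. Such differences were also common over all 12808 genes. With the rule for apart genes applied within guide 2 alone, 703 of them were higher in replicate 2 and 1042 lower. For COL17A1 this difference within guide 2 was 7.73, for KRT14 5.91 and for CDH1 6.47, all larger than between the sides. For ITGB6 it was 3.86, smaller than between the sides (4.85), since ITGB6 was at 82.7, 83.3, 22.9, 189 and 29.9 CPM in the high libraries, with the empty-vector ones highest. With guide 2 replicate 2 left out of the high side, 303 of the 343 higher genes and 77 of the 141 lower genes were still apart. The 6 highest genes were then again COL17A1, FAT2, DSG3, DSC3, TP63 and LAD1, and the 6 lowest were DCN, RBP4, GALC, LAMA4, RGS4 and SULT1B1.

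The labelled genotypes were then tested across the 15 libraries with edgeR's quasi-likelihood test, with Benjamini-Hochberg adjustment over 17457 genes, so that p-values measure the spread between the labelled replicates. At an adjusted p under 0.05, 751 genes (4.3%) varied among the 5 genotypes, and 263 (1.51%) differed between the 9 edited and the 6 unedited libraries. Of the 343 apart genes that were higher, 37 (10.8%) varied among genotypes and 23 differed between edited and unedited libraries. Of the 141 lower ones 8 (5.67%) and 6 did. Over all 12808 genes with at least 1 CPM the shares were 4.6% and 1.58%. These genes were picked in the same libraries, so their counts are no independent evidence of a genotype effect. For the score genes the adjusted p for genotype was 0.187 (CDH1), 0.179 (EPCAM) and 0.213 (ESRP1). In edited against unedited libraries the log2 difference was -3.47 for CDH1 (SE 1.14, edgeR adjusted p 0.157), -1.07 for EPCAM (SE 0.726, 0.518) and -3.11 for ESRP1 (SE 1.17, 0.214), so that none passed. Among the largest differences, ITGB6 varied by genotype (adjusted p 0.0436 by edgeR), and so did DCN (0.0166), GALC (0.0317), LAMA4 (0.0232) and RGS4 (0.00896). DCN was 1.78 higher on the log2 scale in edited libraries (SE 0.355, edgeR adjusted p 0.0289) and RGS4 2.17 higher (SE 0.319, 0.00817). SPINT1, PLAU and IL1B also varied by genotype, with edgeR adjusted p of 0.00289, 0.00559 and 0.00479.

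Guide 2 replicate 2 decided many of these tests. Without it, 4227 of 17849 genes (23.7%) varied among genotypes and 3213 (18%) differed between edited and unedited libraries by the same edgeR test. The log2 differences in edited libraries were then -6.63 for CDH1 (edgeR adjusted p 0.000144), -2.32 for EPCAM (0.00247) and -6.16 for ESRP1 (0.000224). Of the apart genes, 332 (96.8%) of the 343 higher and 118 (83.7%) of the 141 lower then varied among genotypes, and 339 and 109 differed between edited and unedited libraries. With that library left out, the high side holds only unedited and the low side only edited libraries, so that the choice of these genes favours such a call.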

How the data were processed

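Poly(A) RNA-seq was measured in 15 libraries, grouped by their labels. The authors deposited whole-number read counts per gene for 60721 identifiers, and a table of CPM. Per the submitters' processing notes, reads were handled with Trim Galore 0.6.0 and STAR 2.7.8a on GRCh38; the counter, annotation and use of strand are not given in the sources used here, so overlapping and near-identical genes are uncertain. The deposited CPM equal the deposited counts divided by library totals within 4.91e-11, so the count test ran on the counts themselves. Totals ranged from 46129559 to 78976917 (median 55942785), and intervals and floors of 3 counts cover counting error only. Symbols were found for 60357 identifiers, and positions are from GENCODE release 29.

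The sides were compared as differences of mean log2(CPM + 1), with Python 3.11.15, numpy 2.4.6 and pandas 2.3.3; figures used matplotlib 3.10.9. Genotypes were tested with edgeR 4.0.16 in R 4.3.3 (filterByExpr, TMM, quasi-likelihood, 1 fit over all libraries, Benjamini-Hochberg, threshold 0.05), and the procedure was tested on simulated data. DESeq2 1.42.0, other scalings, filters, pseudocounts, sides, a replicate block and the removal of each library were alternatives. The members and gene lists were chosen with earlier results of these data known. Genes named are the score genes and NF1, the 12 highest and 12 lowest apart, the 6 of each without guide 2 replicate 2, list members as counts with those of largest size, and all listed regulators; others are said to be chosen after their values were seen. One listed gene, DDX58, had no match. Results for some listed genes are not reported here.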

Additional observations from a re-analysis of the deposited data

Results flagged for a closer look

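Each side of each named gene was checked for a library far from the other 4 on the log2(CPM + 1) scale. Such a library was found in 11 of 111 sides. The cut-off gives about 1 in 20 for like libraries with a normal spread. Each side mixes genotypes and was picked by expression, so that rate cannot be set against the 11. Guide 2 replicate 2 was far below the other high libraries for NF1 (31.4 CPM against 115.3 to 159 CPM), for MMP2 (7.30 against 25.5 to 36.6 CPM) and for ZEB2 (9.75 against 23.1 to 30.6 CPM). It is the only edited library among them. Empty vector replicate 3 was below the other high libraries for LAMA4 (1.42 against 2.75 to 3.17 CPM) and FOXC2 (16.0 against 22.7 to 23.9 CPM). Parental replicate 1 was below them for MIR205HG (60.1 against 110.3 to 126 CPM).

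Among the low libraries, guide 1 replicate 3 was above the others for DSC3 (2.85 against 0.479 to 0.632 CPM) and ESRP2 (14.7 against 10.6 to 11.3 CPM). It was below them for MMP2 (61.4 against 83.7 to 93.8 CPM) and KLF4 (19.0 against 27.0 to 27.6 CPM). Guide 1 replicate 1 was the only low library with any OVOL1 counts (0.0766 CPM against 0), close to the floor of 3 counts.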

How the results depend on the processing

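The sides held the same 5 and 5 libraries when any score gene was dropped and under every scaling and pseudocount tried. The 484 genes apart (70.9% of them higher in the high libraries) became 239 with a pseudocount of 5 and 1119 with a minimum difference of 0.58. Within guide 2 alone, 1 library against 2, there were 1745 (703 higher, 1042 lower, so 40.3% higher), of which 455 were among the 484. With the 3 empty-vector libraries left out of the high side, an alternative added after the data were seen, there were 1150 (503 higher, 647 lower, 43.7% higher); leaving out guide 2 replicate 2 as well, added likewise, gave 624. Fewer libraries on a side make an overlap less likely, by construction. The count lay between 399 and 568 with any 1 library left out, and without guide 2 replicate 2 the lower genes were 78 in place of 141. TMM-scaled log2 CPM with a prior count of 2 gave 654 (61.0% higher), with all 484 among them, and RLE-scaled values gave 487. With 4 or 6 libraries on a side there were 567 and 343.

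The count of genes that varied among genotypes, 751 by edgeR, was 2672 by DESeq2 and 198 to 4227 with 1 library left out, lowest without empty vector replicate 3 and highest without guide 2 replicate 2. Of the 15 removals, 12 moved it by more than 1.5 times, all but those of guide 2 replicates 1 and 3 and parental replicate 1. It rose only without guide 2 replicate 2 and guide 1 replicate 3 (1784). The 263 genes different between edited and unedited libraries became 928 by DESeq2, 29 with parental cells alone as the unedited group, 1122 with empty-vector cells alone, and 59 (without parental replicate 3) to 3213 (without guide 2 replicate 2) with 1 library left out. By DESeq2 the adjusted p for genotype was 0.0383 for EPCAM and 0.0469 for ESRP1. The cause of these changes was not tested.

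Same-numbered replicates did not deviate together (mean correlation -0.05 over 30 pairs, from -0.75 to 0.279, against 0.028 for other numbers), so the numbers are not taken to pair the libraries. With a replicate block the counts were 299 for genotype and 111 for edited against unedited libraries. No difference of a named apart gene changed sign under any alternative run. The differences of 3 named regulators that were not apart did in at least 1: RBM47 (-0.10, and 0.03 without guide 2 replicate 2), TWIST2 and GRHL3. Among single genes, 144 of 1482 differences under an alternative moved by more than the spread within the sides. Depth limits statements on CDH1, ESRP1, FAT2, CRB3 and MARVELD3 in the low libraries, which lie near 3 counts.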

Other observations

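Among the apart genes outside the lists, a few with high levels were picked after their values were seen. S100A2, a calcium-binding protein of basal epithelium, was at 163, 213, 159, 183 and 177 CPM in the low and 1451, 1458, 1013, 2229 and 1903 CPM in the high libraries, and parental replicate 2, at 252 CPM, lay nearer to the low side. SFRP1, a secreted WNT antagonist, was at 21.2, 47.3, 21.6, 25 and 26.2 CPM in the low and 281, 270.5, 507, 475 and 771 CPM in the high libraries. SLC7A5, a transporter of large neutral amino acids, was at 745 to 970.4 CPM in the low and 1502 to 3497 CPM in the high libraries, highest in guide 2 replicate 2. The cell surface proteoglycan SDC1 was at 77.3 to 108 and 181 to 407 CPM. In the other direction, the proteoglycan core protein SRGN was at 356 to 435 CPM in the low and 81.9 to 217 CPM in the high libraries, the testican SPOCK1 at 256 to 385 and 47 to 174 CPM, and the glutamine synthetase GLUL at 580.4 to 720.4 and 185 to 428 CPM. Each of these 3 was lowest in guide 2 replicate 2.

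The high libraries differed among themselves in genes that did not meet the rule, also picked after their values were seen. LCP1, an actin-bundling protein of blood cells and some epithelia, was at 73.5, 69.6, 0.474, 123 and 17.6 CPM in the high libraries, with the 3 empty-vector libraries highest and parental replicate 1 within the range of the low side (0.289 to 1.19 CPM). RAB25, a small GTPase of epithelial recycling endosomes, was at 1.73, 1.75, 0, 3.86 and 0 CPM in the high libraries, so that it was seen in the empty-vector libraries and listed at 0 in parental replicate 1 and guide 2 replicate 2. CD24, a surface glycoprotein, was at 92.3, 85, 35.2, 266 and 22.1 CPM in the high libraries.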
